A study of Mus musculus with 6 samples.

Results

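DNA transposon and Helitron families are groups of interspersed repeats, and their RNA counts were measured in mouse spermatogonial stem cells, which renew the male germline, grown in culture. The members were the rows of the deposited repeat family table whose names begin with hAT, TcMar, MuDR, Charlie, PiggyBac, Helitron, Tip100, Blackjack, Mariner, Tigger or Merlin, with or without a question mark. The rule took 12 of the 53 rows. No row was named Blackjack or Merlin. The members were Tip100, hAT, hAT? and Charlie of the hAT superfamily, Tigger, Mariner, TcMar and TcMar? of the Tc1/mariner superfamily, MuDR, PiggyBac, Helitron and Helitron?. All cells came from DBA2 testes at postnatal days 5 to 8. The compared groups were 3 libraries of cells kept for 2 weeks with 2 uM EPZ5676 and 3 libraries kept as long with 0.2% ethanol as the control. EPZ5676 (pinometostat) is a small-molecule inhibitor of DOT1L, the enzyme that methylates histone H3 in the body of transcribed genes. The groups were given no genetic change in the labels, and the series calls the libraries biological triplicates. No label says whether they came from separate animals or cultures, so the p-values measure only the spread between these libraries.

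DNA transposons are mobile elements that encode a transposase, which cuts the element out of one site and inserts it at another. Helitrons are thought to spread by a rolling-circle mechanism instead. In the mouse genome the families are known as old, inactive remnants, and several host genes arose from captured transposases. A question mark after a family name marks an uncertain assignment in repeat annotation. A count in the table is an assignment of a read to any copy of a family. The sources do not say whether a read that matches several copies was counted repeatedly. The table also does not say whether that copy lay inside the transcript of a gene. No consensus sequence of these families was at hand, so none is shown.

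Gene counts totalled 17784332 to 54645903 per library, with EPZ5676 replicate 2 the deepest. The replicate 2 libraries stood apart in both groups. Summed fibroblast markers (14 genes, all tested) were at 2400 CPM (counts per 1000000 gene counts, after scaling between libraries) in ethanol replicate 2 and 1835 CPM in EPZ5676 replicate 2, against 1378 to 1494 CPM in the other 4. All 15 markers of spermatogonia were detected, with a summed level of 4061 to 4521 CPM with ethanol and 4247 to 4428 CPM with EPZ5676. The edgeR test called 0 of the 15, with or without the replicate number as a block. At an unadjusted p under 0.05 it gave 3 without the block, against 1101 of 14855 genes tested. With the block it gave 2 higher and 4 lower, against 9.01% and 9.51% of all genes. Groups did not overlap for 3 of the 15, against 14.9% of all genes. Of these 3, Gfra1 (log2 fold change -0.41 ± 0.12, SE) and Cd9 (-0.17 ± 0.07) were lower and Etv5 (0.18 ± 0.08) higher with EPZ5676. Thy1 is in both the fibroblast and the spermatogonia list. Sertoli, Leydig, peritubular, macrophage and endothelial lists each summed to no more than 121 CPM in any library. Of the 14 fibroblast genes 13 were lower on average with EPZ5676 (median -0.25 on the log2 scale) and edgeR called 0. At an unadjusted p under 0.05 edgeR gave 0 of the 14, against 1101 of all 14855 genes tested. With the replicate number as a block edgeR again called 0 of the 14, but 7 had an unadjusted p under 0.05, all lower, against 9.51% of all genes lower, and the smallest adjusted p was 0.0504 (Col1a2, a collagen chain). The part of this shift in the member levels was not tested. Ribosomal RNA ran from 159.7 counts per 1000000 gene counts in EPZ5676 replicate 3 to 17815 in EPZ5676 replicate 2. In bulk RNA, fewer cells of a type and less RNA per cell cannot be told apart.

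The members together held a small part of the repeat counts. Their counts summed to 7045, 7065 and 7118 in ethanol replicates 1, 2 and 3 and to 6164, 20086 and 7320 in EPZ5676 replicates 1, 2 and 3. A level is given here as family counts per 1000000 gene counts of the same library. The summed level was 360.3, 397.3 and 338.2 in ethanol replicates 1, 2 and 3. With EPZ5676 it was 310.3, 367.6 and 354.0. The groups overlapped, with ethanol replicate 2 highest and EPZ5676 replicate 1 lowest. The means were 365 ± 29.8 with ethanol and 344 ± 29.9 with EPZ5676 (SD, n = 3), a ratio of 0.942, which is a difference smaller than either SD. As a share of all repeat counts the members held 0.0104% to 0.0144% of a library. L1 alone held 67.3% to 72.4% of those counts. How multiply aligned reads were counted is not given, so this is a share of counts and not of RNA. The share of the members was 0.0125% ± 0.00202 with ethanol and 0.0122% ± 0.000599 with EPZ5676 (SD, n = 3).

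Most DNA transposon counts of the table lay under older repeat names outside the rule. These 6 rows were MER1_type, MER1_type?, MER2_type, AcHobo, Tc2 and DNA. MER1_type elements are related to the hAT superfamily and MER2_type elements to the Tc1/mariner superfamily. Summed, the 6 rows stood at a level of 2703 to 3477, and the members made up 9.42% to 10.8% of all DNA transposon and Helitron counts. The share was 10.1% ± 0.263 with ethanol and 10.2% ± 0.678 with EPZ5676 (SD, n = 3). MER1_type, the most abundant of the 6, was at 2576 ± 137 with ethanol and 2424 ± 284 with EPZ5676 (SD, n = 3), and the unresolved DNA row was at 18.4 ± 2.35 and 17.2 ± 2.72. Among the LINE and SINE rows kept for reference the log2 fold changes were -0.08 ± 0.21 (SE) for L1, -0.06 ± 0.13 for L2, -0.06 ± 0.14 for Alu, -0.19 ± 0.31 for B2 and -0.06 ± 0.16 for B4, and edgeR called 0 of them. Of the 48 tested families 13 lay above 0. The highest were srpRNA at 1.22 ± 1.68, RNA at 0.85 ± 1.30 and scRNA at 0.67 ± 0.44. Next came rRNA at 0.44 ± 1.56 and snRNA at 0.27 ± 1.46. With the replicate number as a block all of these but scRNA lay below 0. The level of srpRNA was 3329 in EPZ5676 replicate 2, against 99.9 and 18.8 in EPZ5676 replicates 1 and 3 and 271 to 690 with ethanol. Both rRNA and snRNA were likewise highest in EPZ5676 replicate 2 and lowest in EPZ5676 replicate 3. On the log2 scale Simple_repeat was at 0.20 ± 0.25 and ERV1? at 0.22 ± 0.14. The rows above 0 are named here after their values were seen.

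**Figure D1:**
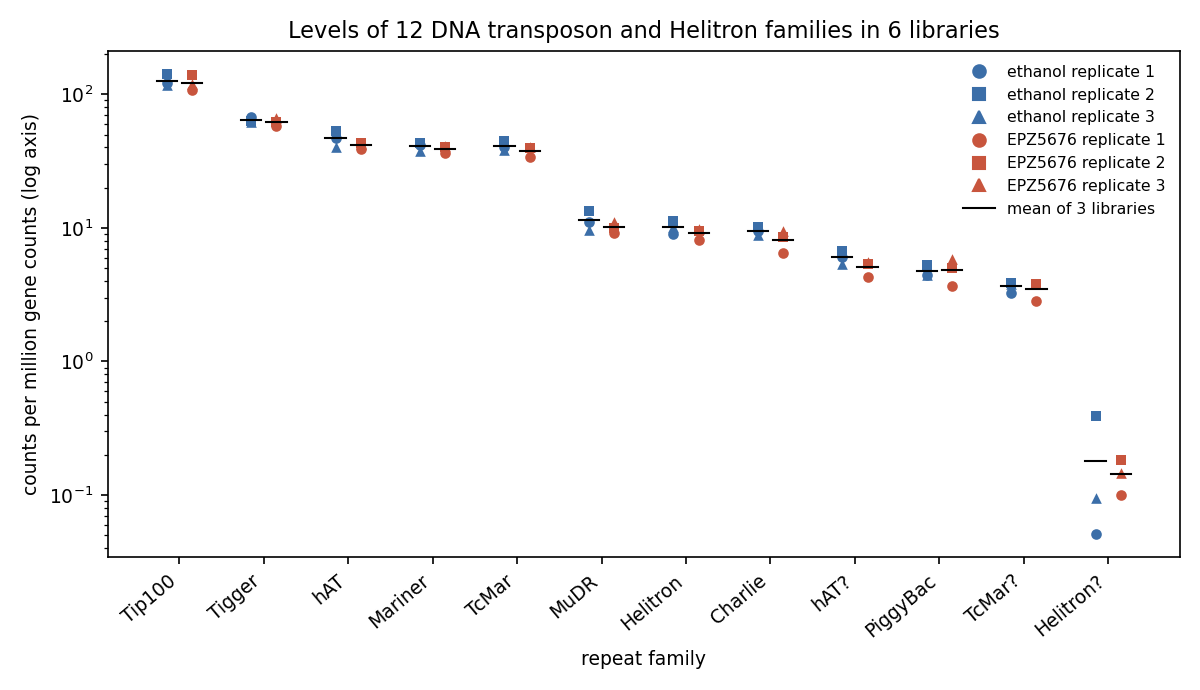
Family counts per 1000000 gene counts (log axis) of the 12 families in each library, with ethanol in blue, EPZ5676 in red, the replicate number as the marker shape and the mean of 3 libraries as a bar. Tip100 was highest in every library, at 108 to 143, Helitron? was lowest, at 0.0511 to 0.394, and the groups overlapped for all 12 families.

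Tip100 held 35.8% of the member counts, Tigger 17.6%, hAT 12.3%, Mariner 11.2% and TcMar 11.1%. The other 7 families held between 0.0456% (Helitron?) and 2.95% (MuDR) each. These counts are not divided by the number or length of copies. Their order therefore describes how many counts were assigned to a family, not expression per copy. In that order Tip100 exceeded Tigger, Tigger exceeded hAT, and TcMar exceeded MuDR with no overlap over the 6 libraries. Mariner and TcMar were not separated, since Mariner was higher in 4 of 6 libraries. From MuDR through Helitron, Charlie, hAT? and PiggyBac to TcMar?, the ranges of neighbours overlapped.

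The 4 hAT rows made up 52.1% of the member counts. Their summed level was 189 ± 21.3 with ethanol and 177 ± 19.6 with EPZ5676 (SD, n = 3). Tip100, a hAT group found in many animals, was at 120.8, 142.6 and 116.8 in ethanol replicates 1, 2 and 3. With EPZ5676 it was at 108.3, 139.7 and 118.7. Both replicate 2 libraries lay above the other 4 for Tip100.

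The row named hAT was at 46.9, 53.2 and 40.2 with ethanol and at 39.0, 43.5 and 42.2 with EPZ5676. Ethanol replicates 1 and 2 lay above all EPZ5676 libraries, and ethanol replicate 3 lay among them. hAT? was at 6.09, 6.69 and 5.37 with ethanol and at 4.28, 5.40 and 5.56 with EPZ5676, from 85 to 295 counts a library. Charlie, a hAT group first described in mammals, was at 9.56, 10.2 and 8.79 with ethanol and at 6.44, 8.53 and 9.53 with EPZ5676. The low value of Charlie came from EPZ5676 replicate 1, with 128 counts. The uncertain row hAT? held 9.88% to 11.8% of the counts of hAT and hAT? together, lowest in EPZ5676 replicate 1.

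The 4 Tc1/mariner rows made up 40.9% of the member counts, at 150 ± 6.15 with ethanol and 143 ± 10.4 with EPZ5676 (SD, n = 3). Tigger, a group of the pogo branch, was at 67.2, 62.8 and 62.5 with ethanol and at 57.6, 62.1 and 66.1 with EPZ5676. Tigger was not highest in ethanol replicate 2, unlike most members. Mariner was at 41.5, 43.1 and 37.7 with ethanol and at 36.6, 40.3 and 40.9 with EPZ5676. TcMar was at 40.2, 44.4 and 38.6 with ethanol and at 34.0, 39.5 and 40.4 with EPZ5676. In Mariner and TcMar, EPZ5676 replicate 1 was the lowest library and ethanol replicate 2 the highest. TcMar? stood between 2.82 and 3.88 and held 7.53% to 8.96% of the counts of TcMar and TcMar? together.

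MuDR, named for the Mutator transposon of maize, was at 11.1, 13.5 and 9.69 with ethanol and at 9.21, 9.96 and 11.1 with EPZ5676. PiggyBac, named for an element found in a moth, was at 4.45, 5.29 and 4.47 with ethanol and at 3.67, 5.03 and 5.80 with EPZ5676. EPZ5676 held both the lowest and the highest library for PiggyBac. Helitron was at 9.05, 11.3 and 10.2 with ethanol and at 8.15, 9.55 and 9.77 with EPZ5676. Helitron was the 1 tested member that was lower with EPZ5676 within all 3 pairs of libraries that share a replicate number, by 0.15, 0.24 and 0.06 on the log2 scale. Over all tested families, 6.25% (3 of 48) were lower in all 3 pairs, so a single member of 11 is near that background. Helitron? had 1, 7 and 2 counts with ethanol and 2, 10 and 3 with EPZ5676. A count of 1 has an exact Poisson 95% interval of 0.0253 to 5.57 and a count of 10 one of 4.80 to 18.4. These intervals cover counting error only and take each count as an independent read. Helitron? failed the minimum of 10 counts in at least 3 libraries and was not tested.

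No tested member passed the test between EPZ5676 and ethanol. The quasi-likelihood test of edgeR, after Benjamini-Hochberg adjustment, called 0 of 11 members, against a background of 0% (0 of 48 families). At an unadjusted p under 0.05 it gave 0 members and 0 of 48 families. DESeq2 and limma-voom also called 0 families. At an unadjusted p under 0.05 DESeq2 gave 0 of 48 families and limma-voom 1, which was not a member. With the replicate number as a block the edgeR test again called 0 families, with 0 at an unadjusted p under 0.05. Groups did not overlap for 0 of 11 members, against 2.08% of the 48 families (1 row, tRNA).

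hAT? had the smallest p of the members, with a log2 fold change of -0.25 ± 0.15 (SE), a 95% interval from -0.61 to 0.11 and an edgeR adjusted p of 0.861 (0.726 to 0.998 over the alternatives). Charlie had a log2 fold change of -0.22 ± 0.16, MuDR of -0.18 ± 0.15, hAT of -0.17 ± 0.12 and Helitron of -0.15 ± 0.12. TcMar had one of -0.11 ± 0.10, TcMar? of -0.07 ± 0.16, Mariner of -0.05 ± 0.09, Tip100 of -0.05 ± 0.14 and Tigger of -0.05 ± 0.09. PiggyBac was the 1 member above 0, at 0.03 ± 0.19. Mariner and Tigger had the narrowest intervals, from -0.27 to 0.17 and from -0.26 to 0.16. Over the 11 members the lowest limit was 0.651-fold (Charlie) and the highest 1.42-fold (PiggyBac). For each member, differences inside its own interval were not resolved.

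Of the 11 members, 10 had a negative log2 fold change, with a median of -0.11. Over all 48 families 72.9% were negative, with a median of -0.07, so most of the table lay on the same side. Leaving out 1 library at a time gave member medians from -0.16 to -0.04, with 0 calls each time. The medians nearest to 0 came without ethanol replicate 2 (-0.05) and without EPZ5676 replicate 1 (-0.04). Without both replicate 2 libraries it was -0.08, with 10 of 11 members negative and 0 calls.

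**Figure D2:**
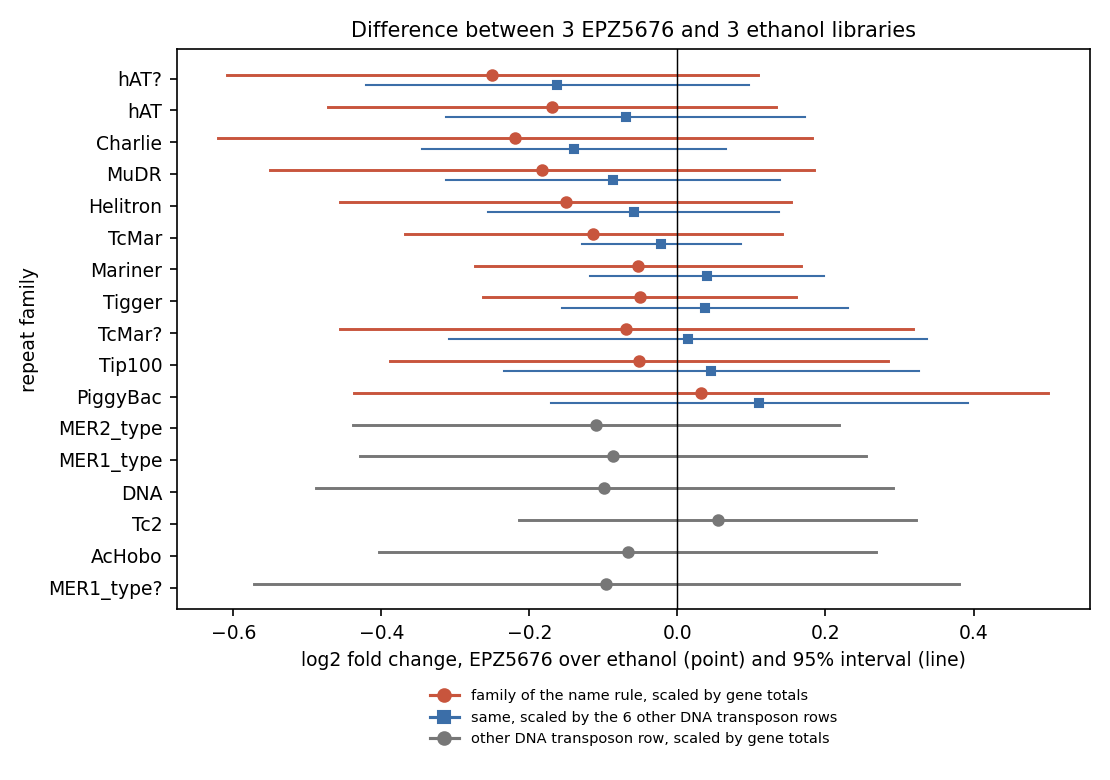
Log2 fold change of EPZ5676 over ethanol with its 95% interval for the 11 tested members scaled by gene totals (red circles) or by the 6 other DNA transposon rows (blue squares), and for those 6 rows scaled by gene totals (grey). Every interval spans 0, and the median of the 11 members is -0.11 for the red and -0.02 for the blue points.

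The same libraries stood high or low in most members. Ethanol replicate 2 was the highest library for 9 of the 11 tested members, Tigger and PiggyBac being the exceptions, and EPZ5676 replicate 1 was the lowest for all 11. The median deviation of the members from their own 6-library mean was 0.20 on the log2 scale in ethanol replicate 2 and -0.21 in EPZ5676 replicate 1. In the other 4 libraries it lay between -0.04 and 0.06. Within pairs of equal replicate number, 11 of 11 members were lower with EPZ5676 in pair 1, 11 in pair 2 and 1 in pair 3. Over all families 41, 37 and 9 of 48 were lower in pairs 1, 2 and 3. The median member difference was -0.24, -0.17 and 0.07 on the log2 scale in the 3 pairs.

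**Figure D3:**
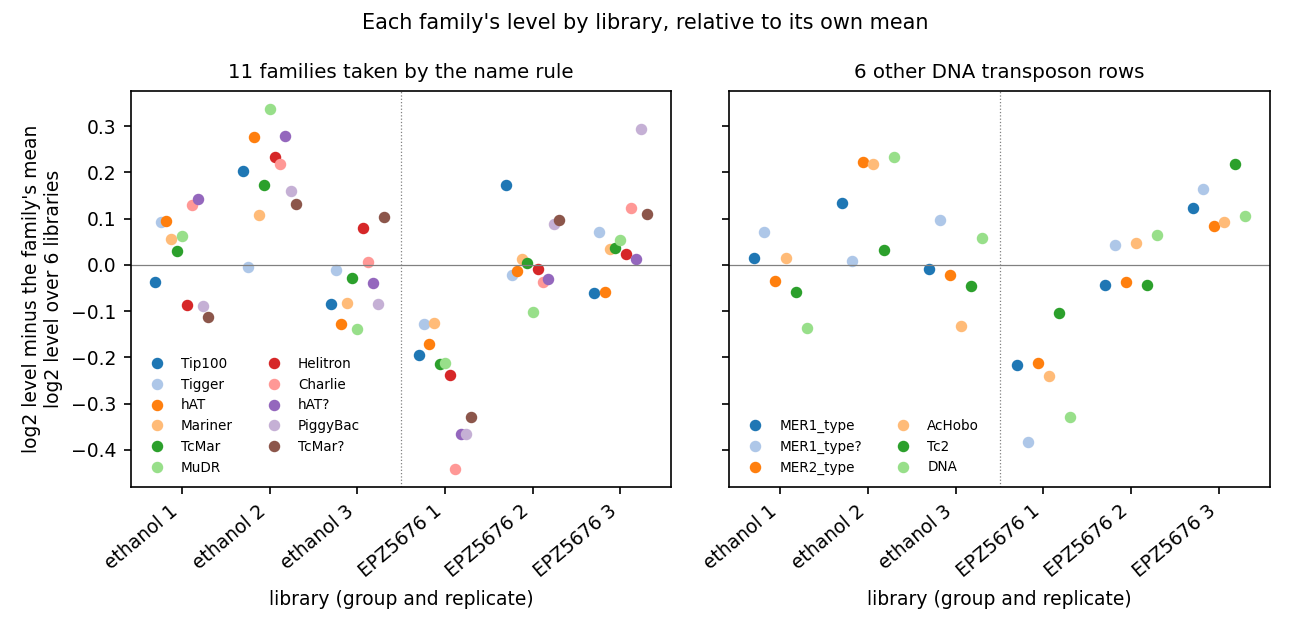
Log2 level of each family minus its own mean over the 6 libraries, for the 11 tested members (left) and the 6 other DNA transposon rows (right), by library. In the left panel ethanol replicate 2 has a median of 0.20 and EPZ5676 replicate 1 a median of -0.21, and all 6 rows of the right panel are lowest in EPZ5676 replicate 1.

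Some other measures were high or low in the same libraries. All repeat counts together were 3.83 times the gene total in ethanol replicate 2 and 2.41 times in EPZ5676 replicate 1, the highest and the lowest of the 6. Malat1, a long RNA retained in the nucleus, was at 577 counts per 1000000 gene counts in ethanol replicate 2 and 403 in EPZ5676 replicate 1, the highest and the lowest by gene totals. EPZ5676 replicate 3 was at 574, and on CPM it was the highest for Malat1, at 578.7 against 574.5 in ethanol replicate 2. The other tested long RNAs retained in the nucleus varied on CPM. Kcnq1ot1 and Mirg were highest in ethanol replicate 2 and lowest in EPZ5676 replicate 1. Neat1, Rian and Meg3 were highest in ethanol replicate 2 but lowest in ethanol replicate 1. Xist was highest in EPZ5676 replicate 3 and lowest in ethanol replicate 1. The fibroblast markers were also highest in ethanol replicate 2, and not lowest in EPZ5676 replicate 1 (1381 CPM, against 1378 in ethanol replicate 1). Their part in the member levels was not tested.

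Likeness over the 6 libraries was measured by Pearson's r between log2 levels and the log2 summed member level, as a description of values that share a library and its gene total. AcHobo, another hAT group, had an r of 0.956, Gypsy?, an uncertain LTR row, one of 0.945 and the unresolved SINE row one of 0.945. Among the members TcMar (0.962) and Mariner (0.937) were most like the sum that contains them and Tigger (0.548) least. Between pairs of members the median r was 0.747 over 55 pairs, lowest at 0.225 for Tigger and Tip100.

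The spread between libraries exceeded counting error in the abundant families. Counting error here takes each count as an independent read, and whether a read was counted repeatedly is not given. For Tip100 the coefficient of variation (SD over mean) was 10.95% with ethanol and 13.1% with EPZ5676, where counting alone gives 2.02% and 1.83%. For hAT it was 13.9% and 5.58%, against 3.33% and 3.09% from counting. The sparse families PiggyBac, TcMar? and Charlie had 10.1%, 9.04% and 7.31% with ethanol, no more than the 10.5%, 11.9% and 7.37% that counting gives. Within EPZ5676 these 3 reached 22.3%, 16.4% and 19.3%, above the 9.25%, 10.9% and 7.08% from counting.

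The members were also set against the other DNA transposon rows of the same library. Per 1000 counts of those 6 rows, TcMar was at 12.8, 12.8 and 12.4 with ethanol and at 12.6, 13.0 and 11.9 with EPZ5676. Mariner was at 13.2, 12.4 and 12.1 with ethanol and at 13.6, 13.2 and 12.02 with EPZ5676. Both groups overlapped on this scale. Tip100 was at 38.4, 41.0 and 37.6 with ethanol and at 40.1, 45.8 and 34.9 with EPZ5676. Charlie was at 3.04, 2.93 and 2.83 with ethanol and at 2.38, 2.80 and 2.80 with EPZ5676, so all EPZ5676 libraries lay below all ethanol libraries. The nearest values, in ethanol replicate 3 and EPZ5676 replicates 2 and 3, came from 185, 466 and 197 counts of Charlie. Their gap was smaller than the coefficient of variation that counting alone gives Charlie (7.37% with ethanol, 7.08% with EPZ5676). Charlie was the 1 member without overlap on this scale, where 6.25% (3 of 48) of the families did not overlap. hAT? was at 1.93, 1.92 and 1.73 with ethanol and at 1.58, 1.77 and 1.63 with EPZ5676, where the groups overlapped.

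With these rows as the scaling, a choice made after seeing the data, the edgeR test called 0 of 48 families, with 2 families and 0 members at an unadjusted p under 0.05. Charlie had a log2 fold change of -0.14 ± 0.08 (SE) and hAT? one of -0.16 ± 0.10, with an edgeR adjusted p of 0.998 for both. The signs of the members split into 6 negative and 5 positive, with a median of -0.02. With it Tip100, Tigger, Mariner and TcMar? changed sign and stood between 0.01 and 0.05.

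Host genes that arose from DNA transposons were taken as a list of their own. The list held 27 genes, of which 24 were tested, and Tigd4, Rag1 and Rag2 had too few counts. The quasi-likelihood test over all genes called 0 of the 24, against a background of 0% of 14855 genes. With the replicate block it also called 0 of 24, against 0.653% (97 genes). At an unadjusted p under 0.05 the unblocked test gave 2 of the 24, against 1101 of all 14855 genes. The blocked test gave 6 higher and 0 lower, where the background was 9.01% higher and 9.51% lower. DESeq2, without the block, called 23 genes higher and 29 lower, of which 0 were in the list. At an unadjusted p under 0.05 DESeq2 gave 2 of the list, against 1003 of all 14855 genes. Of the 24 genes, 19 had a log2 fold change above 0, with a median of 0.15, against 48.3% and a median of -0.01 over all genes tested.

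**Figure D4:**
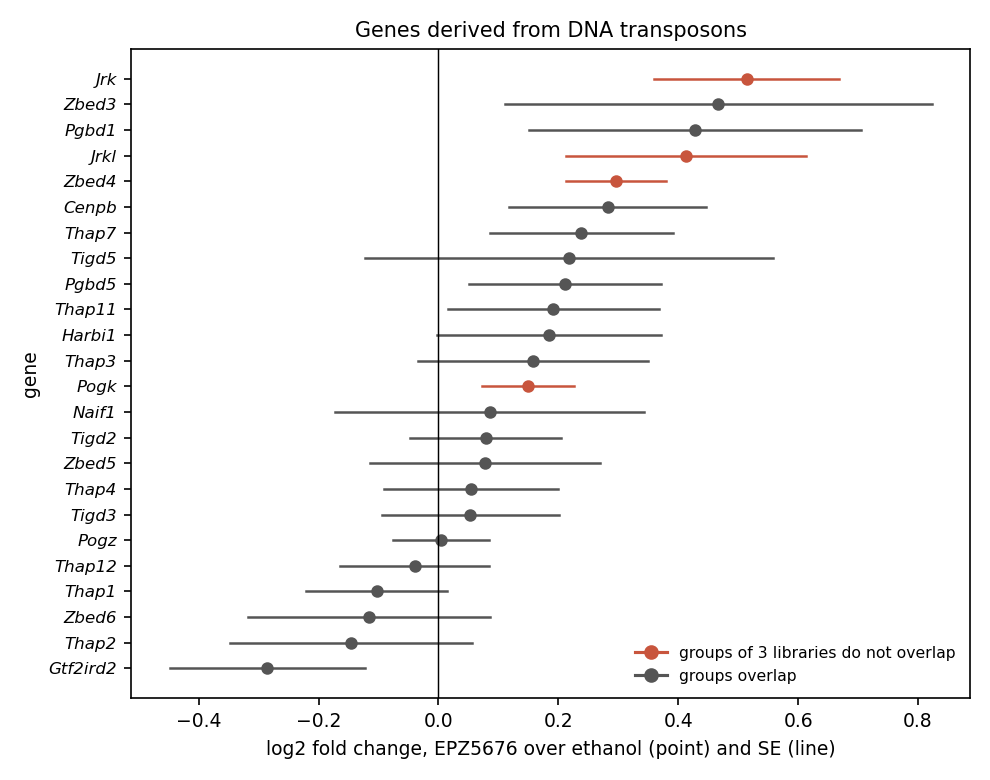
Log2 fold change of EPZ5676 over ethanol with its SE for the 24 tested genes derived from DNA transposons, with genes whose groups did not overlap in red. Jrk stands highest at 0.51 and Gtf2ird2 lowest at -0.29, and none passed after adjustment over all genes.

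Jrk, a protein related to the transposases of the pogo and Tigger elements, was at 10.3, 8.12 and 10.3 CPM with ethanol and at 14.4, 12.01 and 14.8 CPM with EPZ5676. The groups did not overlap, and the log2 fold change was 0.51 ± 0.15 (SE). The edgeR adjusted p was 0.596, and 0.0637 with the replicate block. Zbed4, which carries a domain of hAT transposases, was at 54.7, 50.4 and 51.7 CPM with ethanol and at 66.2, 60.6 and 65.9 CPM with EPZ5676. Its log2 fold change was 0.30 ± 0.08 (SE), and its edgeR adjusted p was 0.596, or 0.0748 with the block. Jrkl, a relative of Jrk, was at 4.73, 3.19 and 4.46 CPM with ethanol and at 5.42, 5.06 and 6.09 CPM with EPZ5676. Pogk, which carries a pogo-type transposase domain and is named here after its values were seen, was at 93.9, 104 and 98.5 CPM with ethanol and at 108, 106 and 115 CPM with EPZ5676. These 4 genes were the members of the list whose groups did not overlap, all higher with EPZ5676, where 7.22% of all genes tested were higher without overlap. Cenpb, the centromere protein derived from a pogo-like transposase and also named after its values were seen, was at 22.5 ± 4.34 and 27.5 ± 3.98 CPM (SD, n = 3) with ethanol and EPZ5676.

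Genes that silence transposons did not pass the test either. Of 25 chromatin silencers, all tested, 0 were called by edgeR with or without the block or by DESeq2. At an unadjusted p under 0.05 edgeR gave 1 without the block and 8 with it (5 higher, 3 lower). The background for this and the following lists was 1101 of 14855 genes without the block. With the block it was 2751 genes, 9.01% of all genes higher and 9.51% lower. Among the 25 silencers 14 had a log2 fold change above 0, with a median of 0.01. Dnmt1, the maintenance DNA methyltransferase, was at 733 ± 31.6 CPM with ethanol and 829 ± 39.7 CPM with EPZ5676 (SD, n = 3), and Morc3 and Smchd1 had log2 fold changes of 0.15 ± 0.07 and 0.16 ± 0.07 (SE). Of 11 piRNA pathway genes 0 were called by the same tests, 1 was at an unadjusted p under 0.05 without the block and 3 with it, all lower, and 6 were below 0, with a median log2 fold change of -0.03. Mov10l1, the RNA helicase of piRNA production, was at 679 ± 28.5 CPM with ethanol and 586 ± 20.2 CPM with EPZ5676, with a log2 fold change of -0.21 ± 0.06. Tex19.1 and Mael had values of -0.29 ± 0.17 and -0.19 ± 0.12. Of 10 nuclear-retained long RNAs 7 were tested, with 0 called, 0 at an unadjusted p under 0.05 with or without the block and a median of -0.02. Of 69 symbols of replication-dependent histone genes 13 were tested, with 0 called, 1 at an unadjusted p under 0.05 and 12 above 0 (median 0.51). With the block 0 were called, 2 were at an unadjusted p under 0.05, both higher, and 10 were above 0 (median 0.28). Their summed level was 26.4, 55.0 and 27.8 CPM with ethanol and 29.8, 82.4 and 22.7 CPM with EPZ5676, highest in the replicate 2 libraries.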

How the data were processed

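The 6 libraries were made with a stranded mRNA kit, per the labels' protocols. The authors deposited whole-number counts per gene symbol (24495 symbols) and per repeat family (53 rows), 1 column per library. The mm9 build and the tools Bowtie, STAR, edgeR and featureCounts are named per the submitters' processing notes. Their roles and versions, the annotation, the strand setting and how multiply aligned reads were assigned: not given in the sources used here. That assignment can move sparse families, since copies of several families may match a read. It can also move the total of repeat counts and every share of it.

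Family counts were divided by the gene total of the library and are given per 1000000. The 3 rows that name no family (0.171% to 0.24% of repeat counts) were left out, and the 48 families that reached 10 counts in 3 or more libraries entered edgeR's quasi-likelihood test (edgeR 4.0.16, R 4.3.3), 2-sided, with the gene totals as library sizes, Benjamini-Hochberg adjustment over the 48 and a threshold of 0.05. The SE comes from the F statistic and is never below the counting error. Genes were tested likewise with TMM after filterByExpr, and their levels are CPM on TMM-scaled library sizes. Alternatives were DESeq2 1.42.0, limma-voom (limma 3.58.1), other scalings and filters, the replicate block and leaving libraries out. The tests were run on simulated data with larger changes than those of the members and, for families, less spread than here. That run does not show whether differences of the members' size would be found.

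The members, gene lists and tests were chosen with earlier results of these data known. All members are given. Of families outside the list, the rule named the 3 most like the summed level and DNA, L1, L2, Alu, B2 and B4 for reference, and of each gene list every called gene and up to 3 genes by smallest p. Whether replicate numbers pair the libraries was read from the correlation of deviations from the group mean: 0.411, 0.614 and 0.335 over genes for pairs 1, 2 and 3, above the bound of 0.1, and 0.759, 0.529 and -0.750 over repeat families, where pair 3 is below it. Libraries of unlike number could also exceed the bound, with up to 0.278 over genes and 0.842 over families. No library copied another, with a chi-square per degree of freedom of at least 3.64 in every pair.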

Additional observations from a re-analysis of the deposited data

How the results depend on the processing

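The count of 0 called families held under all 22 alternatives. Of 239 values of single members under an alternative, 221 kept their sign, 18 changed it and 0 passed the threshold, with adjusted p of 0.726 or more. A minimum of 100 counts in all 6 libraries left 8 members to test. On the log2 scale, Tip100 was at 0.0072 with repeat totals as library sizes, and with the replicate block added Tip100, Tigger and Mariner were at 0.013, 0.015 and 0.014. With TMM over the repeat families Tip100, Tigger, Mariner and TcMar? were at 0.037, 0.030, 0.034 and 0.0063. With the 6 other DNA transposon rows as library size they were at 0.046, 0.038, 0.040 and 0.014. Leaving out 1 library moved Tip100 between -0.16 and 0.041, PiggyBac between -0.11 and 0.19 and TcMar? between -0.14 and 0.059, and the log2 ratio of the summed level between -0.14 and -0.02. The ratio of the share of repeat counts (-0.03) lay between -0.15 and 0.08. The count of called genes was 0 without the replicate block, 97 with it (48 higher, 49 lower) and 52 in DESeq2. The block changed no call of a family. Counts of 1 to 10 a library kept Helitron? from being tested, and TcMar?, PiggyBac and hAT? had 56 to 295.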
